A study of Mus musculus with 4 samples.

Results

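Wnt proteins are secreted signals that carry a lipid added by Porcn and are taken to the cell surface by Wls. They bind Frizzled receptors with the co-receptors Lrp5 and Lrp6, which frees beta-catenin (Ctnnb1) from a destruction complex built on Axin1, so that it can act in the nucleus with the TCF/LEF factors. R-spondins strengthen this signal: with Lgr4, Lgr5 or Lgr6 they remove Znrf3 and Rnf43, the ubiquitin ligases that clear Frizzled from the membrane. In bone, the beta-catenin branch is known for favouring osteoblast formation over cartilage, and changes in Lrp5 alter bone mass in people and in mice.

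The 48 genes described here are Wnt ligands with their 2 export proteins, receptors, R-spondins with their receptors and ligases, nuclear and cytoplasmic parts, and genes that beta-catenin induces. They were chosen by symbol, without the secreted antagonists, and all 48 were found among the 55487 gene IDs of the deposited count table. The counts come from mouse skeletal stem cells sorted by flow cytometry from collagenase-digested metaphyses of long bones, in 2 libraries from ovariectomized mice (Ovx 1 and 2) and 2 from sham-operated mice (Sham 1 and 2). The stain used for the sort covered CD200, CD105, 6C3, CD90 and CD51, together with Tie2, Ter119 and CD45, which mark endothelial and blood cells. All mice were wild type and all samples carry the time 8 weeks, with no word on whether that is age or time after surgery. All sample titles also end in the word control, which the titles do not explain. Removing the ovaries takes away most oestrogen and serves as a mouse model of bone loss after menopause. The labels do not say how many animals a library holds or that libraries came from separate animals, so p-values measure the spread between these libraries, which may be technical.

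The libraries held 18291436 to 23721078 counts, and 1 count was worth 0.0423 to 0.0519 CPM (counts scaled to the size of the library with TMM). Of the sorted antigens, Itgav (CD51) was at 69.0 and 72.0 CPM in Ovx and 70.4 and 67.3 CPM in Sham libraries, while Thy1 (CD90) was at 0.134 to 0.211 CPM in all 4. Cd200 fell, at 173 and 155 CPM in Ovx, against 237 and 305 CPM in Sham libraries (edgeR adjusted p = 0.0462). Eng (CD105) was at 75.2 and 83.1 CPM in Ovx, against 21.6 and 52.1 CPM in Sham libraries, and Enpep (6C3) at 4.40 and 3.64 CPM in Ovx, against 1.52 and 1.91 CPM in Sham libraries. For these 2 antigens the groups were apart and the difference did not pass (edgeR adjusted p = 0.150 and 0.220). Tek (Tie2) was at 7.53 and 9.76 CPM in Ovx, against 0.223 and 5.52 CPM in Sham libraries. Ptprc (CD45) was at 3.55 and 6.44 CPM in Ovx and 9.55 and 5.25 CPM in Sham libraries. Neither Tek nor Ptprc was called (edgeR adjusted p = 0.474 and 0.578). The part of the sort in the results was not tested. The chondrocyte gene Col2a1 stood at 40259 and 36879 CPM in Ovx and 73169 and 65394 CPM in Sham libraries, so the sorted cells carried much cartilage RNA in both groups. In bulk RNA, fewer cells of a type and less RNA per cell cannot be told apart.

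After ovariectomy 2 of these genes rose, and no difference passed the test for the other 41 that could be tested. The 2 were Rspo2, an R-spondin needed for limb development in mice, and Fzd1, a Frizzled receptor. A gene was called changed at an adjusted p under 0.05 (edgeR quasi-likelihood test, Benjamini-Hochberg over all genes tested). Of the 43 members with enough counts to test, 2 were higher (4.65%) and 0 lower, beside 2.98% higher and 1.20% lower of all 17120 genes tested. These shares rest on 2 genes and do not set the list apart from the rest of the transcriptome. At an unadjusted p under 0.05, 7 members were higher and 5 lower, and DESeq2 and limma-voom called 2 and 1 members lower. The median log2 fold change was 0.04 over the 43 members and -0.02 over all genes tested. Both Ovx libraries lay above both Sham libraries for 14 members (32.6%) and below them for 11 (25.6%), beside 25.5% and 23.9% of all genes. Among the tested members, 1 reached the count filter in both libraries of Ovx only and 1 in both of Sham only.

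**Figure D1:**
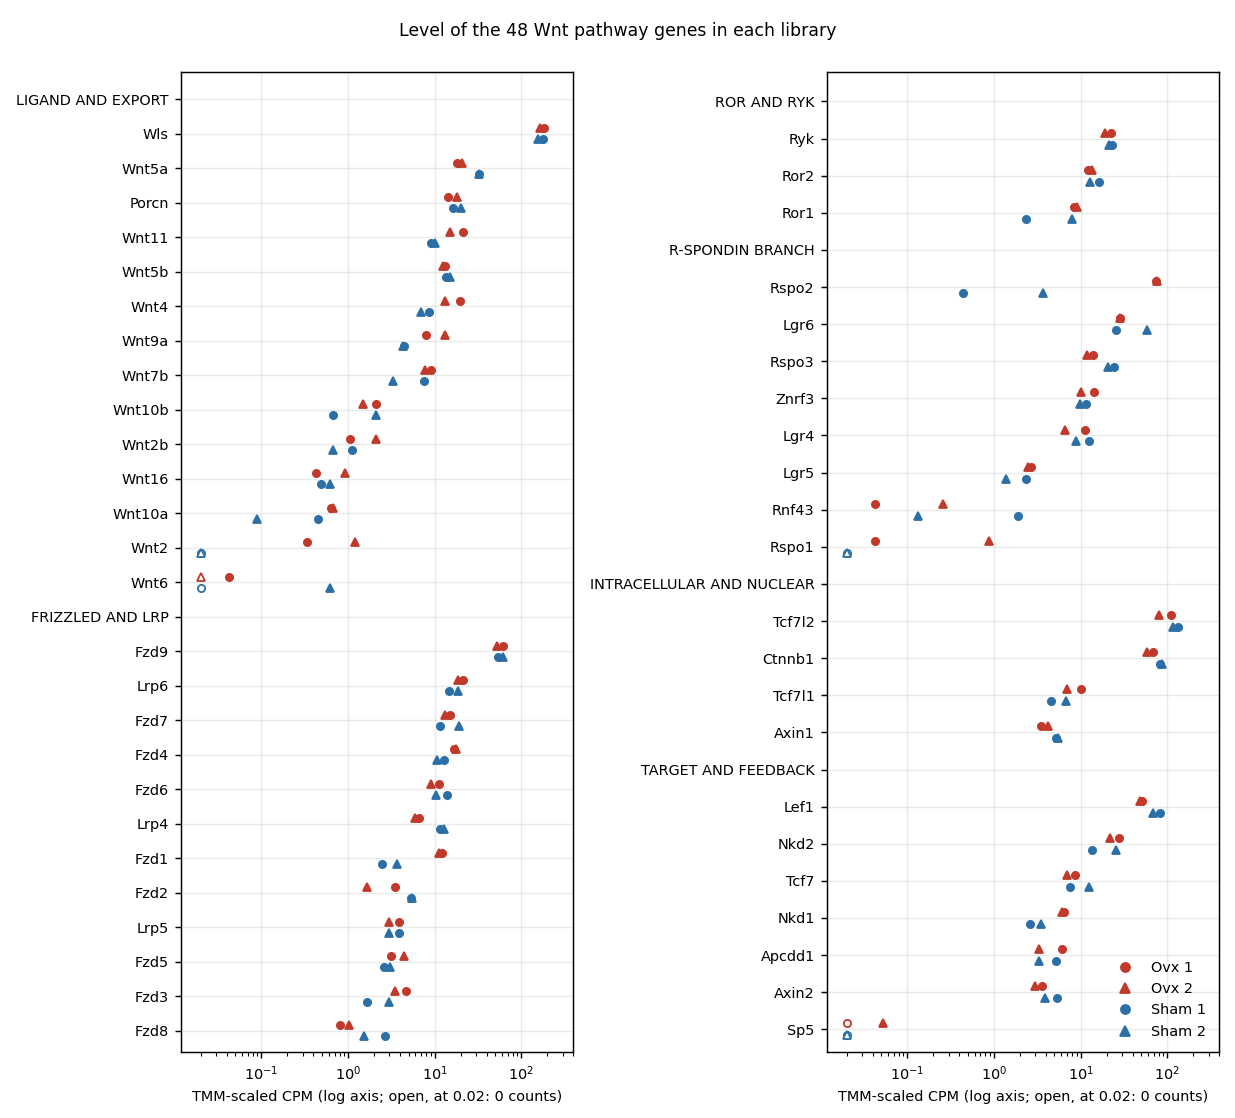
TMM-scaled CPM of the 48 genes in each library on a log axis, grouped by role and ordered by mean level. Circles are libraries 1 and triangles libraries 2, Ovx in red above Sham in blue, and open symbols at the left edge mark 0 counts. Rspo2 stands out, with Ovx libraries at 73.9 and 76.2 CPM and Sham libraries at 0.446 and 3.65 CPM, while for most other genes the 4 libraries lie close together.

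**Figure D2:**
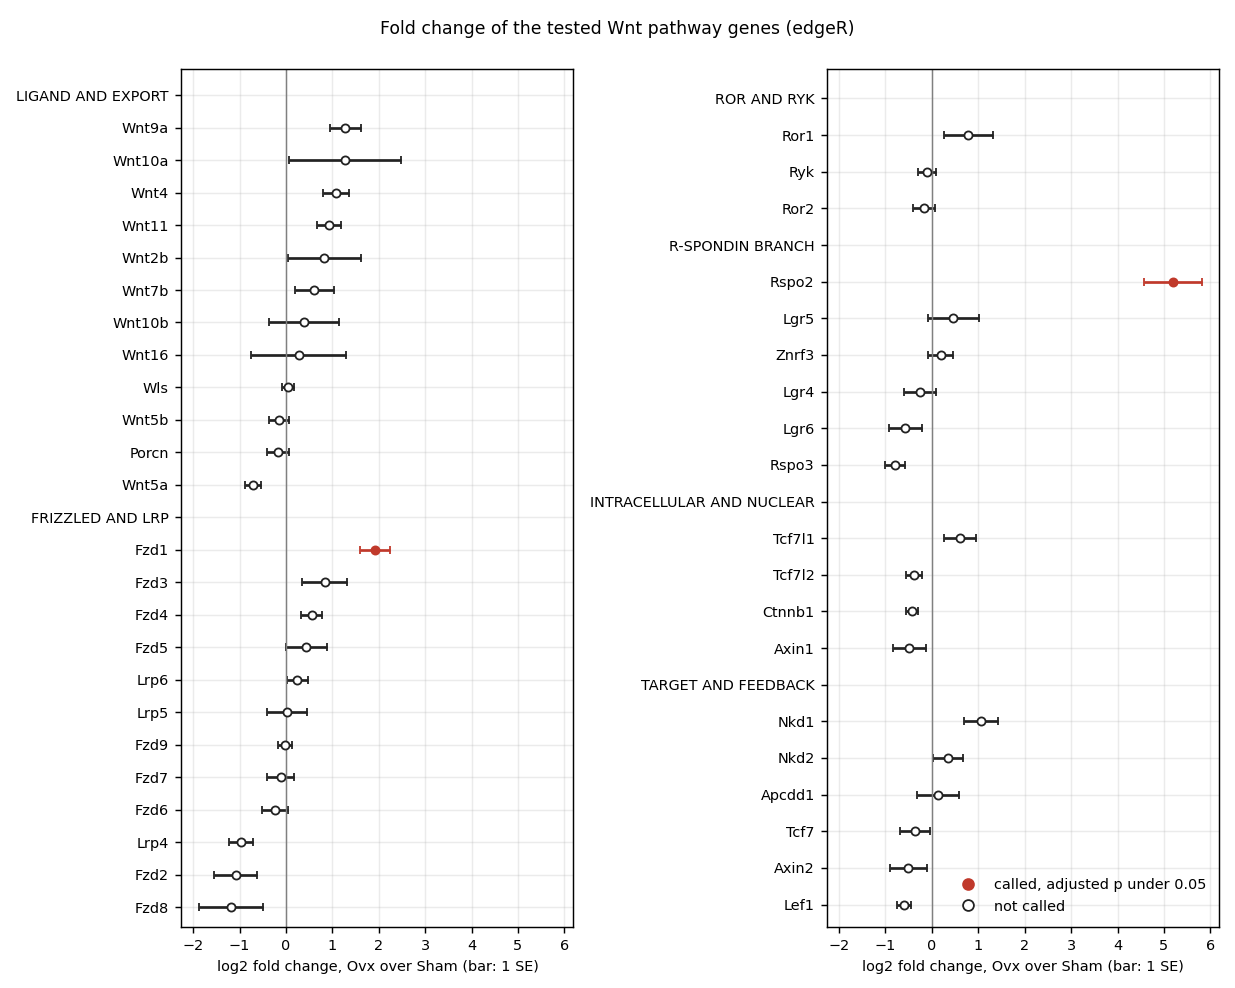
Log2 fold change of Ovx over Sham for the 43 tested genes by role, with bars of 1 SE from edgeR. Filled red points are the 2 called genes, Rspo2 at 5.19 and Fzd1 at 1.93.

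Promoter sequences from RefSeq (GRCm38.p6) are shown for 2 called genes, Fzd1 and Rspo4 (not for Rspo2), and for members with a TCF/LEF core motif, since TCF/LEF factors are the DNA-binding end of the pathway. The first pair gives the 250 bases before the RefSeq start of Fzd1 (chr5:4758217-4758466, minus strand) and of Rspo4 (chr2:151842677-151842926, plus strand), an R-spondin gene outside the 48 described further on. In the annotation used for gene positions, Fzd1 starts at 4758035 on the minus strand, so its stretch does not lie directly before that start. Neither stretch holds the motif searched, so neither has capitals.

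Fzd1: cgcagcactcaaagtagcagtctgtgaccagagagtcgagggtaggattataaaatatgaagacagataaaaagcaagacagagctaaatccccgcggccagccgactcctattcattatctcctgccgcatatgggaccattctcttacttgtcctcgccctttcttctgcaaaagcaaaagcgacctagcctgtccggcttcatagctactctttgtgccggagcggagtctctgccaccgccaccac

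Rspo4: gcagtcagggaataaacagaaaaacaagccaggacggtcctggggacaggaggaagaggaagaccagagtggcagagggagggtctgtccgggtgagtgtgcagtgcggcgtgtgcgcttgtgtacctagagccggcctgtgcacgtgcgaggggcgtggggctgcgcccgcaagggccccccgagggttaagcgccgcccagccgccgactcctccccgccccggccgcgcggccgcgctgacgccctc

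The motif was CTTTGAA or CTTTGAT on either strand (read as TTCAAAG or ATCAAAG on the other), searched from 250 bases before to 50 after each start. It was found in 3 of 41 windows (7.32%) of the 31 members in the table, beside 8.65% of all 32851 windows. The 3 windows belong to Sp5 (chr2:70474794-70474850, plus strand), Wnt11 (chr7:98835036-98835092, plus strand) and one start of Wnt5b (chr6:119449426-119449482, minus strand), shown 5′ to 3′ with the motif in capitals. It begins 104, 51 and 71 bases before the start, in that order. A match is a run of letters and not a measured binding site.

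Sp5: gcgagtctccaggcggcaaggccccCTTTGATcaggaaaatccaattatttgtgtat

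Wnt11: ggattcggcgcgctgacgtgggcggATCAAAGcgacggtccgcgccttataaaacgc

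Wnt5b: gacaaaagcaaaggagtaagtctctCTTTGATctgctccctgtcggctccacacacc

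The R-spondin genes showed the largest change. Rspo2 (ENSMUSG00000051920, chromosome 15, 43020794 to 43170826, minus strand, GRCm38) was at 73.9 and 76.2 CPM in Ovx 1 and 2, against 0.446 and 3.65 CPM in Sham 1 and 2. The Ovx libraries were close to each other and far above both Sham libraries, which differed from each other. The means were 75.0 ± 1.65 CPM in Ovx and 2.05 ± 2.27 CPM in Sham cells (SD, n = 2 each), a 36.5-fold rise (log2 fold change 5.19 ± 0.62 SE, edgeR adjusted p = 0.00647). The size rests on the Sham libraries, with a log2 fold change of 4.36 without Sham 1 and 7.39 without Sham 2. Rspo2 was called in both of these, and with either Ovx library left out it was not. In those 2 fits no gene of the whole transcriptome was called, so this loss is not particular to Rspo2.

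Rspo3 and Rspo4 pointed the other way. Rspo3, which acts in vessel and bone development, was at 14.0 and 11.9 CPM in Ovx, against 24.1 and 20.7 CPM in Sham libraries. The groups did not overlap, but the difference missed the threshold (log2 fold change -0.79 ± 0.21 SE, edgeR adjusted p = 0.0963). With no count filter it was called lower (0.0369), as it was without Sham 2 (0.0424). Of its exon length, 13.1% overlaps Gm48159 on the other strand. Rspo1 was too low to test, with 1 and 17 counts in Ovx and 0 and 0 in Sham libraries.

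Rspo4, known in people for its role in nail formation, is not among the 48 genes but was in the list of further pathway genes. It was at 90.6 and 89.3 CPM in Ovx, against 147 and 137 CPM in Sham libraries, with no overlap. It fell 1.58-fold (log2 fold change -0.66 ± 0.12 SE, edgeR adjusted p = 0.0287). Scaled by library totals alone it did not pass (edgeR adjusted p = 0.0519). Without Ovx 1 or without Ovx 2 it did not pass either, as no gene did. On the scale of CPM per kb of exon, Rspo4 was the most abundant R-spondin gene in every library. Rspo2 made up 25.3% and 26.2% of the summed R-spondin level per kb in Ovx, against 0.125% and 1.09% in Sham libraries. Rspo4 made up 66.8% and 66.2% in Ovx and 88.7% and 88.6% in Sham libraries. The summed level of the family was 57.2 and 56.9 CPM per kb in Ovx and 69.9 and 65.3 CPM per kb in Sham libraries, a description with no test.

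**Figure D3:**
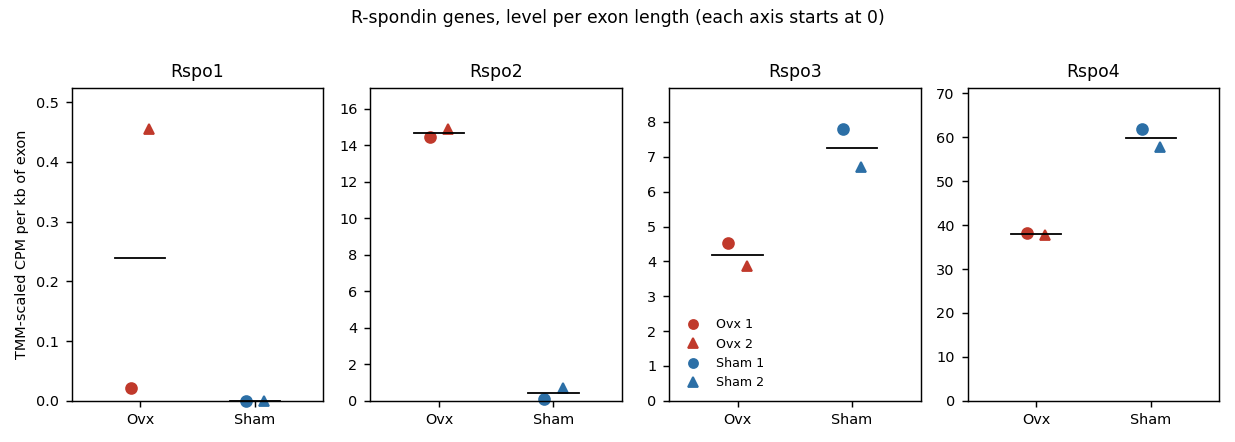
Level of the 4 R-spondin genes in CPM per kb of exon, with 1 point per library and a line at the group mean, Ovx left of Sham, on axes that start at 0 and differ in range. Rspo2 has group means of 14.7 (Ovx) and 0.401 (Sham), and Rspo4 of 37.9 (Ovx) and 59.9 (Sham).

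The receptors and ligases of the R-spondin branch gave no call. Lgr6 led the Lgr receptors at 28.4 and 28.4 CPM in Ovx and 25.5 and 58.8 CPM in Sham libraries. The Ovx pair lay inside the range of the Sham pair (log2 fold change -0.57 ± 0.35 SE, edgeR adjusted p = 0.461). Sham 2 alone set the sign, which turned without it (log2 fold change 0.17). Without Sham 1, Lgr6 was called lower (log2 fold change -1.05, edgeR adjusted p = 0.00167). Lgr4 was at 11.4 and 6.54 CPM in Ovx and 12.4 and 8.90 CPM in Sham libraries. Lgr5, a stem cell marker of the gut in mice, was at 2.66 and 2.49 CPM in Ovx and 2.36 and 1.38 CPM in Sham libraries. Znrf3 was at 14.3 and 10.1 CPM in Ovx and 11.5 and 9.88 CPM in Sham libraries, with overlap. Rnf43 was too low to test, with 1 and 5 counts in Ovx and 43 and 3 counts in Sham libraries. Of 8 genes of this branch 6 were tested, with 1 higher and 0 lower, 1 lower at an unadjusted p under 0.05 (Rspo3), and 0 lower by DESeq2 and by limma-voom.

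Of the Frizzled and Lrp receptors, Fzd1 rose. Fzd1 (chromosome 5, 4753839 to 4758035, minus strand) was at 12.2 and 11.4 CPM in Ovx 1 and 2, against 2.50 and 3.70 CPM in Sham 1 and 2. Both Ovx libraries were above both Sham libraries, with means of 11.8 ± 0.597 CPM in Ovx and 3.10 ± 0.847 CPM in Sham cells (SD, n = 2 each). This was a 3.81-fold rise (log2 fold change 1.93 ± 0.32 SE, edgeR adjusted p = 0.0210). The call was lost without Ovx 1 or without Ovx 2, as was that of every other gene, with fold changes on the log2 scale of 1.89 and 1.99.

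The most abundant Frizzled gene was Fzd9, whose loss in mice lowers bone formation. It was at 61.6 and 52.6 CPM in Ovx and 53.9 and 62.1 CPM in Sham libraries, which overlap (log2 fold change -0.02 ± 0.15 SE, edgeR adjusted p = 0.970; with library totals as scaling the fold change was 0.08). Its share of the summed Frizzled level per kb was 67.4% and 66.3% in Ovx and 69.4% and 70.7% in Sham libraries. The share of Fzd1 was 7.31% and 7.83% in Ovx, against 1.76% and 2.30% in Sham libraries.

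Other Frizzled genes pointed in both directions without passing. Fzd2 was at 3.47 and 1.66 CPM in Ovx, against 5.40 and 5.52 CPM in Sham libraries (log2 fold change -1.08 ± 0.46 SE, edgeR adjusted p = 0.273). Fzd8 was at 0.803 and 1.04 CPM in Ovx, against 2.68 and 1.51 CPM in Sham libraries (log2 fold change -1.18 ± 0.68 SE, edgeR adjusted p = 0.432). For both genes the Ovx libraries lay below the Sham libraries. Fzd4, a receptor also used by norrin, was at 16.9 and 17.5 CPM in Ovx, against 12.8 and 10.6 CPM in Sham libraries, with edgeR adjusted p = 0.242. Fzd7 was at 14.9 and 13.1 CPM in Ovx and 11.5 and 18.9 CPM in Sham libraries. Fzd6 was at 11.3 and 9.19 CPM in Ovx and 13.9 and 10.3 CPM in Sham libraries. Both overlapped between the groups. Fzd3 and Fzd5 were between 1.65 and 4.74 CPM in the 4 libraries, and 17.8% of the exon length of Fzd5 overlaps Gm38058 on the other strand.

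Of the Lrp co-receptors, Lrp4, which binds sclerostin and is also the agrin receptor of the neuromuscular junction, was at 6.60 and 5.97 CPM in Ovx, against 11.6 and 12.8 CPM in Sham libraries. The groups were apart and the difference missed the threshold (log2 fold change -0.96 ± 0.26 SE, edgeR adjusted p = 0.0992). Lrp6 was at 21.3 and 18.7 CPM in Ovx and 14.8 and 18.8 CPM in Sham libraries. Lrp5 was at 3.93 and 3.01 CPM in Ovx and 3.84 and 2.98 CPM in Sham libraries. Both overlapped between the groups. The 12 Frizzled and Lrp genes were all tested, with 1 called higher and 0 lower. At an unadjusted p under 0.05 in edgeR, 2 were higher (Fzd1 and Fzd4) and 1 was lower (Lrp4). By DESeq2 or limma-voom, 0 were lower.

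Ror1, Ror2 and Ryk are receptors of the branch that runs without beta-catenin and is best known for Wnt5a. Ryk was the most abundant per kb, at 22.4 and 18.9 CPM in Ovx and 23.2 and 21.2 CPM in Sham libraries, with overlap. Ror2 was at 12.3 and 13.5 CPM in Ovx and 16.2 and 12.8 CPM in Sham libraries, also with overlap. Ror1 was at 8.50 and 9.14 CPM in Ovx, against 2.32 and 7.92 CPM in Sham libraries, so Sham 1 alone stood low. Its log2 fold change of 0.78 ± 0.53 SE did not pass (edgeR adjusted p = 0.514), and without Sham 2 it was called higher at 1.94 (0.00635). None of the 3 was called by edgeR, DESeq2 or limma-voom, and 0 had an unadjusted p under 0.05 in edgeR.

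Among the 12 ligands, 10 were tested and 0 called. Wnt4, needed for kidney and ovary formation in mice, was at 19.7 and 13.3 CPM in Ovx, against 8.70 and 6.95 CPM in Sham libraries. Its groups were apart, and it missed the threshold (log2 fold change 1.08 ± 0.29 SE, edgeR adjusted p = 0.0941). It was called higher with no filter (0.00639), at a mean of 5 CPM (0.0472), by DESeq2 (0.0394) and without Sham 1 (0.0227). Wnt9a, which acts in joint formation, was at 7.99 and 13.2 CPM in Ovx, against 4.42 and 4.27 CPM in Sham libraries (log2 fold change 1.28 ± 0.34 SE, edgeR adjusted p = 0.0954). With no filter it was called (0.0126). Wnt11 was at 21.0 and 15.2 CPM in Ovx, against 8.97 and 10.2 CPM in Sham libraries (log2 fold change 0.92 ± 0.25 SE, edgeR adjusted p = 0.101). It was called with no filter (0.0196) and without Sham 2 (0.0456).

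Wnt5a, which drives limb outgrowth, pointed the other way. It was at 18.3 and 20.9 CPM in Ovx, against 32.1 and 32.1 CPM in Sham libraries, and the groups did not overlap (log2 fold change -0.71 ± 0.18 SE, edgeR adjusted p = 0.0773). DESeq2 called it lower (0.0474), as did edgeR with no filter (0.0295) and at a mean of 5 CPM (0.0360). Its close relative Wnt5b was at 13.1 and 12.4 CPM in Ovx and 13.5 and 14.9 CPM in Sham libraries. At an unadjusted p under 0.05, Wnt4, Wnt9a and Wnt11 were higher and Wnt5a was lower, DESeq2 called Wnt4 and Wnt5a, and limma-voom called 0 ligands.

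Relative to the summed ligand level per kb, Wnt5a took 10.3% and 12.3% in Ovx, against 24.1% and 24.1% in Sham libraries, and Wnt5b took 21.7% and 21.5% in Ovx, against 29.8% and 32.9% in Sham libraries. Wnt4, Wnt9a and Wnt11 had larger shares in both Ovx libraries than in both Sham libraries: Wnt4 took 20.7% and 14.7% in Ovx and 12.2% and 9.73% in Sham libraries. The summed ligand level was 22.7 and 21.7 CPM per kb in Ovx and 17.1 and 17.0 CPM per kb in Sham libraries. Shares and sums carry no test, and with 2 libraries against 2 the smallest two-sided p of an exact permutation test is 0.333.

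Low ligands were close to the limit of these libraries. Wnt2 was not tested and had 8 and 23 counts in Ovx against 0 and 0 in Sham libraries, at least 5.73-fold higher against a floor of 3 counts per library, a bound that covers counting error only. Wnt6 had 1 and 0 counts in Ovx and 0 and 14 counts in Sham libraries, and was not tested. Wnt2b, Wnt10a, Wnt10b and Wnt16 were between 0.0890 and 2.13 CPM in the 4 libraries, and Wnt7b was at 9.01 and 7.69 CPM in Ovx, against 7.58 and 3.34 CPM in Sham libraries. The export proteins overlapped between the groups. Wls was the most abundant gene of this class, at 183 and 163 CPM in Ovx and 180 and 155 CPM in Sham libraries (log2 fold change 0.04 ± 0.13 SE, edgeR adjusted p = 0.924). Porcn was at 14.4 and 18.3 CPM in Ovx and 16.5 and 20.3 CPM in Sham libraries.

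**Figure D4:**
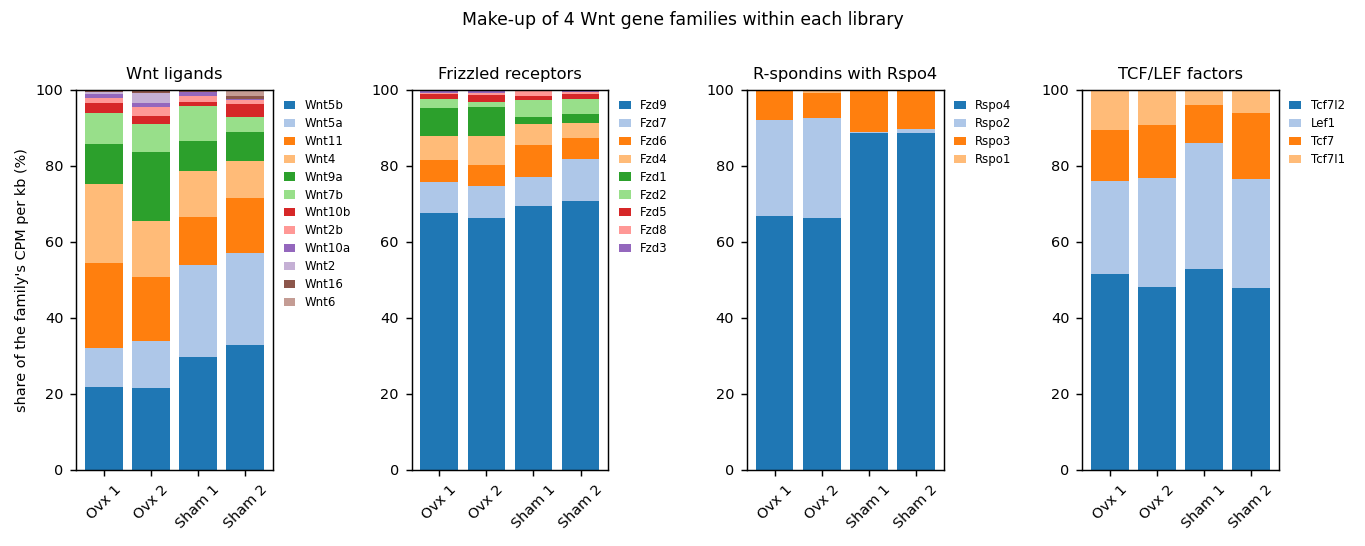
Share of each gene in the summed level per kb of its family, within each library, Ovx left of Sham. The Wnt5a share is smaller in both Ovx libraries (10.3% and 12.3%) than in both Sham libraries (24.1% and 24.1%), Fzd9 holds 66.3% to 70.7% of the Frizzled level in all 4, and Rspo2 is at 25.3% and 26.2% of the R-spondin level in the Ovx libraries.

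Inside the cell, beta-catenin RNA was lower in both Ovx libraries without passing. Ctnnb1 was at 67.8 and 58.7 CPM in Ovx, against 82.6 and 87.4 CPM in Sham libraries (log2 fold change -0.43 ± 0.14 SE, edgeR adjusted p = 0.150). Of its exon length, 15.1% overlaps Ulk4 and Mir7090, and the strand setting of the counting is not given, so reads of overlapping genes cannot be told apart. Tcf7l2 was the most abundant TCF/LEF gene, at 109 and 81.1 CPM in Ovx, against 132 and 115 CPM in Sham libraries (edgeR adjusted p = 0.300). Axin1 was at 3.47 and 4.21 CPM in Ovx, against 5.17 and 5.57 CPM in Sham libraries. Tcf7l1, which mostly represses its targets, was at 10.1 and 7.06 CPM in Ovx, against 4.55 and 6.72 CPM in Sham libraries. For all 4 genes the groups were apart, 1 higher (Tcf7l1) and 3 lower in Ovx, beside 25.5% higher and 23.9% lower of all genes. None of the 4 was called by edgeR, DESeq2 or limma-voom, and 1 (Ctnnb1) had an unadjusted p under 0.05 in edgeR.

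Among the 48 genes, those that beta-catenin induces pointed in different directions, and none was called. Lef1, both a target and a partner of beta-catenin, was at 51.7 and 48.3 CPM in Ovx, against 83.1 and 69.2 CPM in Sham libraries. The groups did not overlap, and the difference missed the threshold (log2 fold change -0.61 ± 0.15 SE, edgeR adjusted p = 0.0736). Lef1 was called lower by DESeq2 (0.0154), limma-voom (0.0488), with no filter (0.0119), at a mean of 5 CPM (0.0237) and without Sham 2 (0.0158), and 13.8% of its exon length overlaps Gm43352 on the other strand. Axin2, the most widely used readout of the pathway, was at 3.59 and 2.96 CPM in Ovx, against 5.40 and 3.92 CPM in Sham libraries, apart but far from the threshold (log2 fold change -0.50 ± 0.40 SE, edgeR adjusted p = 0.596).

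The feedback gene Nkd1, whose protein binds Dishevelled, was at 6.51 and 6.13 CPM in Ovx, against 2.59 and 3.47 CPM in Sham libraries. It pointed up, opposite to Axin2, and did not pass (log2 fold change 1.06 ± 0.37 SE, edgeR adjusted p = 0.176). Nkd2 was at 28.1 and 21.7 CPM in Ovx and 13.5 and 25.6 CPM in Sham libraries, with overlap, and without Sham 2 it was called higher (log2 fold change 0.90, edgeR adjusted p = 0.0461). Tcf7 was at 8.54 and 7.01 CPM in Ovx and 7.54 and 12.5 CPM in Sham libraries. Apcdd1, a membrane inhibitor of Wnt signalling, was at 6.09 and 3.27 CPM in Ovx and 5.22 and 3.34 CPM in Sham libraries. The groups overlapped for both. Sp5, a target in embryos, had 0 and 1 counts in Ovx and 0 and 0 in Sham libraries and was not tested. Of the 6 tested target and feedback genes 0 were called, with Nkd1 higher and Lef1 lower at an unadjusted p under 0.05.

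Of 73 further pathway genes, 64 were tested, with 4 higher (6.25%) and 2 lower (3.13%), beside the 2.98% and 1.20% of all genes given above. Their median log2 fold change was 0.04. Besides Rspo4, Gpc6 fell, a glypican of the cell surface, at 122 and 105 CPM in Ovx, against 226 and 169 CPM in Sham libraries (log2 fold change -0.80 ± 0.17 SE, edgeR adjusted p = 0.0466). Gpc6 did not pass when scaled by library totals alone (edgeR adjusted p = 0.0648). Without Ovx 1 or without Ovx 2 it did not pass either, as no gene did. The glypican Gpc3, named after its values were seen, pointed the other way, at 9.09 and 16.7 CPM in Ovx, against 3.57 and 1.38 CPM in Sham libraries. Its groups were apart and it just missed the threshold (5.19-fold, edgeR adjusted p = 0.0511). It was called higher with library totals, with no filter, at a mean of 5 CPM, by DESeq2 and by limma-voom. Whether Wnt or other signals raised the 4 genes called higher was not tested. Cd44, the hyaluronan receptor, was at 195 and 195 CPM in Ovx, against 48.1 and 52.5 CPM in Sham libraries (3.87-fold, log2 fold change 1.95 ± 0.13 SE, edgeR adjusted p = 0.000795). Ccn5, a matricellular protein, was at 96.6 and 94.6 CPM in Ovx, against 18.5 and 20.9 CPM in Sham libraries (4.86-fold, edgeR adjusted p = 0.000795).

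Myc, a growth-promoting transcription factor, was at 1221 and 1237 CPM in Ovx, against 835 and 709 CPM in Sham libraries (1.59-fold, edgeR adjusted p = 0.0221). Nfatc1, a factor of the calcium branch, was at 466 and 432 CPM in Ovx, against 291 and 260 CPM in Sham libraries (1.63-fold, edgeR adjusted p = 0.0197). For these 4 genes both Ovx libraries lay above both Sham libraries, beside 25.5% of all genes. Each of the 4 calls was lost with either Ovx library left out, as was the call of every other gene. Of the other targets of the pathway, Ccnd1 was at 88.4 and 73.6 CPM in Ovx and 97.9 and 75.4 CPM in Sham libraries. Ccn4 was at 159 and 145 CPM in Ovx and 126 and 186 CPM in Sham libraries. Ccnd1 and Ccn4 overlapped between the groups. Fosl1 was at 35.6 and 35.6 CPM in Ovx, against 26.0 and 23.0 CPM in Sham libraries, and 57.2% of its exon length overlaps Ccdc85b. Id2 was at 477 and 393 CPM in Ovx, against 533 and 556 CPM in Sham libraries. Neither Fosl1 nor Id2 was called (edgeR adjusted p = 0.131 and 0.228). These targets were picked after their values were seen.

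Markers of other cell types differed between the same libraries. The counts of called markers below stand beside 2.98% higher and 1.20% lower of all genes tested. Of 7 fibroblast markers, 5 were higher and 0 lower, with summed levels of 5959 and 6648 CPM in Ovx and 4125 and 6515 CPM in Sham libraries. Most of that sum is Dcn, which was not called, and the other 6 summed to 423 and 466 CPM in Ovx, against 92.1 and 134 CPM in Sham libraries. Of 7 pericyte and smooth muscle markers, 3 were higher and 0 lower. The 7 summed to 582 and 633 CPM in Ovx and 307 and 335 CPM in Sham libraries. Most of the Sham sum is Cspg4, which was not called (edgeR adjusted p = 0.163). Cspg4 pointed the other way, at 214 and 222 CPM in Ovx, against 284 and 266 CPM in Sham libraries. Of 8 endothelial markers 0 were called by edgeR (1 at an unadjusted p under 0.05), at 58.4 and 85.1 CPM in Ovx and 14.3 and 54.1 CPM in Sham libraries, with Cdh5 and Emcn at 0 in Sham 1. The pericyte gene Rgs5 was picked after its values were seen. It was at 295 and 361 CPM in Ovx, against 5.66 and 46.4 CPM in Sham libraries. Like Rspo2, Rgs5 was lowest in Sham 1. Some markers of other cell types shared this order. Examples are Dpt (fibroblast, 11.5 CPM in Sham 1, 21.2 CPM in Sham 2) and Plvap (endothelial, 1.69 CPM, then 8.46 CPM). Others, such as the myeloid marker Mpo, were lowest in Sham 2 (3.39 CPM in Sham 1, 0.490 CPM in Sham 2). Of the pericyte markers, Cspg4 was highest in Sham 1, and Acta2 and Des differed little between the Sham libraries.

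Of 7 chondrocyte markers, 6 were lower and 0 higher, beside 1.20% lower and 2.98% higher of all genes tested. The 7 summed to 60403 and 54933 CPM in Ovx and 103456 and 95647 CPM in Sham libraries. Of 7 osteoblast markers, 3 were lower and 1 higher, at 71779 and 65732 CPM in Ovx and 78293 and 107011 CPM in Sham libraries. Most of that sum is Col1a1, which was not called (edgeR adjusted p = 0.258). Col1a1 was at 61075 and 57192 CPM in Ovx and 62492 and 88749 CPM in Sham libraries. Of 6 tested erythroid markers 2 were higher and 0 lower, at 101 and 142 CPM in Ovx, against 28.3 and 17.9 CPM in Sham libraries. Of 6 tested myeloid and lymphoid markers 2 were higher and 0 lower, at 145 and 241 CPM in Ovx, against 71.6 and 44.6 CPM in Sham libraries. Klf1 and Slc4a1 were at 0 in Sham 2, and Cd3e was at 0 in 3 libraries. The part of these cell types in the values of Rspo2, Fzd1, Rspo4 and the other genes was not tested.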

How the data were processed

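Bulk RNA-seq of 2 Ovx and 2 Sham libraries, made with a SMARTER mRNA kit per the labels' protocols, was deposited by the authors as 1 table of raw read counts per Ensembl gene. Trim Galore 0.6.6, featureCounts 2.0.1 and the build GRCm38 (mm10) are named in the submitters' processing notes. Which aligner, annotation release and strand setting were used is not given in the sources used here. GENCODE M21 (GRCm38) gave symbols, positions and exon lengths for 55227 of 55487 IDs.

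Genes were kept by filterByExpr (about 0.433 CPM in at least 2 libraries), which left 17120. With TMM scaling, Ovx was compared with Sham in R 4.3.3 by quasi-likelihood F tests (edgeR 4.0.16, two-sided, tested on simulated data), with Benjamini-Hochberg adjustment over all genes. Alternatives used DESeq2 1.42.0, limma 3.58.1, other scalings and filters, the replicate number as a block, and each library left out. Counts of a pair differed by more than sampling noise (chi-square per degree of freedom 13.9 for Ovx and 28.6 for Sham), so no library was a copy. Fold changes are Ovx over Sham, and the SE is the size of the log2 fold change divided by the square root of F.

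The members and lists were chosen with earlier results of these data known. Members given per library are those called, those that differed by 1 or more on the log2 scale with a mean of at least 1 CPM, the highest per kb of each role, and others by level. Promoters came from the RefSeq table, where 31 of 48 members matched, and protein sequences were not used here.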

Additional observations from a re-analysis of the deposited data

How the results depend on the processing

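With 2 libraries per group the number of calls depends on how the spread is estimated. Of all genes, 716 were called (510 higher, 206 lower), against 1656 (1112 and 544) with no filter and 1339 (883 and 456) by DESeq2. A filter at a mean of 5 CPM called 1105, of which 406 were lower, and limma-voom called 313 lower. Scaling by library totals alone moved the median log2 fold change of all genes to 0.09 and the split to 718 higher and 156 lower. The replicate numbers did not pair the libraries (correlation of deviations 0.0043), and the fit with the replicate number as a block called 329 genes lower, 1 member (Lef1, adjusted p = 0.0409) lower and 1 more member (Wnt4, 0.0445) higher. Leaving out each library in turn gave 0 to 1835 calls (0 to 1277 higher, 0 to 558 lower). The 0 came without either Ovx library, where the spread rests on the Sham pair alone and 1788 (without Ovx 1) and 1618 genes (without Ovx 2) had an unadjusted edgeR p under 0.05.

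Rspo2 and Fzd1 were called in each alternative that kept all 4 libraries. The 2 members called higher became 5 with no filter and 0 to 5 with a library left out (5 without Sham 2). The 0 members called lower in edgeR became 3 with no filter, 2 at a mean of 5 CPM and by DESeq2, 1 with limma-voom, and 0 to 2 with a library left out. The further pathway genes called higher were 7 in place of 4 with library totals, no filter, a mean of 5 CPM, DESeq2, limma-voom and the replicate block, and 0 to 7 with a library left out. Those called lower were 0 in place of 2 with library totals, and 0 to 3 with a library left out. The median log2 fold change of the tested members was 0.15 with library totals, -0.12 at a mean of 5 CPM, and -0.069 to 0.14 with a library left out. The causes were not tested.

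Signs turned only for members that were not called. With upper-quartile scaling Wls was at -0.0010 and Lrp5 at -0.019 on the log2 scale, and with library totals Fzd9 was at 0.084. With each library left out in turn, 15 log2 fold changes took both signs. Among ligands and export genes the ranges were Wnt10b -0.20 to 1.44, Wnt16 -0.38 to 0.76, Porcn -0.34 to 0.0098 and Wls -0.046 to 0.16. Among receptors they were Fzd7 -0.43 to 0.30, Fzd9 -0.12 to 0.10, Lrp5 -0.16 to 0.22, Ror2 -0.32 to 0.014 and Ryk -0.22 to 0.027. In the R-spondin branch they were Lgr4 -0.69 to 0.11, Lgr6 -1.05 to 0.17 and Znrf3 -0.069 to 0.43, and among targets Tcf7 -0.68 to 0.059, Nkd2 -0.037 to 0.90 and Apcdd1 -0.37 to 0.52.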
